A study of Mus musculus with 4 samples.

Results

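Globin and erythroid identity genes were examined in sorted mouse LSK cells, the marrow population defined by absent lineage antigens and by surface Sca-1 and c-Kit, which contains blood stem cells and early progenitors. The set holds 9 genes, namely the adult globins Hba-a1, Hba-a2, Hbb-b1 and Hbb-b2, the transcription factors Gata1 and Klf1, the erythropoietin receptor Epor, and the enzymes Alas2 and Car1. They were found by their gene symbol in the authors' table, which gave 10 of the 55677 probes of the array, 2 of them for Car1 and 1 for each other gene. RNA of 2 samples from mice labelled EZH1 knockout and 2 samples labelled control, all of the strain C57Bl/6J, was hybridised to 4 Agilent arrays in 1 colour. Ezh1 is a histone H3 lysine 27 methyltransferase of polycomb repressive complex 2. The labels give neither the mice's age, nor the genotype of the controls, nor how or where Ezh1 was disrupted, nor whether replicates are separate animals, so the spread behind each p-value may be technical. The question was how far the globins, the factors that drive their transcription and the other erythroid genes differed between knockout and control cells, and whether they moved together across arrays.

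Red cell precursors fill with haemoglobin, a tetramer of alpha and beta globin chains that each bind a heme group. GATA1, a zinc finger protein that binds GATA motifs, and KLF1, which binds CACCC motifs, activate the globin genes and most other genes of the red cell lineage, while signalling through the erythropoietin receptor keeps committed progenitors alive. Alas2 catalyses the first, rate-limiting step of erythroid heme synthesis, and Car1 encodes a cytosolic carbonic anhydrase abundant in red cells. LSK cells lie upstream of committed erythroid progenitors, and lineage depletion for this sort commonly includes the erythroid antigen Ter-119.

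In the mouse genome build GRCm38.p6, Hba-a1 lies at chr11:32283672-32284486 and Hba-a2 at chr11:32296492-32297310. The RefSeq accession attached to the Hbb-b1 probe now belongs to Hbb-bt at chr7:103812524-103813923. The C57BL/6 strain carries the beta globin haplotype with the genes Hbb-bs and Hbb-bt, whereas Hbb-b1 and Hbb-b2 are names of the diffuse haplotype of other strains, so the Hbb-b2 probe was designed to a transcript of a different haplotype. Gata1 lies at chrX:7959260-7976663, Klf1 at chr8:84901982-84905291, Epor at chr9:21958897-21963576, Alas2 at chrX:150547417-150570622 and Car1 at chr3:14766214-14808365. Where in these genes each probe binds, exonic or untranslated sequence included, is not stated in the files.

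The 250 bases before the transcript start are shown for 5 of the genes, because the comparison is between globins and the factors that bind such elements. RefSeq promoters of build GRCm38.p6 were used, printed 5′ to 3′ on the gene's own strand. Capitals mark the motif GATAA (the core that GATA factors bind), CACCC (the core that KLF1 binds) and CCAAT, each searched on both strands, so that matches on the other strand are in capitals too. No match overlapped another.
Hba-a1, chr11:32283422-32283671, plus strand: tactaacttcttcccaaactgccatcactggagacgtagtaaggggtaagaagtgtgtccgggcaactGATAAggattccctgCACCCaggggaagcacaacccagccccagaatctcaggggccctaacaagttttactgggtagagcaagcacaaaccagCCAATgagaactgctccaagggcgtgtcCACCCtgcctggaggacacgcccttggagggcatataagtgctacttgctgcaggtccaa
Hbb-bt, chr7:103813924-103814173, minus strand: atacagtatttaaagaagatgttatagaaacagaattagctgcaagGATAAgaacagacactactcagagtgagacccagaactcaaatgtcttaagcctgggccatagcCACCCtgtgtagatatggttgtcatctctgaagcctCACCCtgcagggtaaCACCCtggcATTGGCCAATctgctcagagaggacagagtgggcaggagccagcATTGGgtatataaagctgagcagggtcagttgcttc
Gata1, chrX:7967911-7968160, minus strand: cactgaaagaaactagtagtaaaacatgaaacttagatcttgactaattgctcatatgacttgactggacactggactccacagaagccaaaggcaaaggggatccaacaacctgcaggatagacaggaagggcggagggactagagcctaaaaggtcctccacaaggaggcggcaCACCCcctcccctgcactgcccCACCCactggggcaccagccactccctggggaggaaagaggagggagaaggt
Klf1, chr8:84901732-84901981, plus strand: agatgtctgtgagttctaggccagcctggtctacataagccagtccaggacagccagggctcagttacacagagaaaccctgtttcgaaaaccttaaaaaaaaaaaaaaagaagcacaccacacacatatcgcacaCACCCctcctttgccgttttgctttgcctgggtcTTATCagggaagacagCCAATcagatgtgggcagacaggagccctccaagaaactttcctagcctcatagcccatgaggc
Alas2, chrX:150547167-150547416, plus strand: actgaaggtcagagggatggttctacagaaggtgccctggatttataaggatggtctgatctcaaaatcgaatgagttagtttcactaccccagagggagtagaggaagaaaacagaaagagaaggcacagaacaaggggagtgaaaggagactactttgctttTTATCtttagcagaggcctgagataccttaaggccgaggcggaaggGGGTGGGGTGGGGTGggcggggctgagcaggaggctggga

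The Hba-a1, Hbb-bt, Klf1 and Alas2 windows each held a GATAA match and at least 1 CACCC match, a combination found in 10.1% of all 32851 promoter windows of this length. A GATAA match was found in 22.6% of windows, CACCC in 52.0% and CCAAT in 33.8%. The Gata1 window, which starts from a transcript start inside the annotated gene, held 2 CACCC matches and no GATAA. The Epor window at chr9:21963577-21963826 also held both, with 1 GATAA and 2 CACCC matches. The Hba-a2 window was the same as that of Hba-a1 over all 247 bases that the 2 windows share, so these are near-identical gene copies. Probes for near-identical copies can bind each other's transcripts, so Hba-a1 and Hba-a2 are uncertain as separate genes. No window was found for Hbb-b2 and Car1. A match describes these letters and not a bound site.

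The deposited intensities were not on a common scale, with 75th percentiles from 1095 to 1690 over the arrays. All comparisons below therefore use the scaled log2 intensity, the log2 of the intensity minus that of the array's 75th percentile. A probe was taken as detected where its intensity exceeded the 20th percentile of its array, a limit between 12.4 and 87.3. The 4 Ezh1 probes had log2 fold changes from -1.15 to 0.27 (lowest limma adjusted p = 0.780); without knowing the disrupted part of the gene they do not check the labels. Of the markers that define the sort, Kit was detected on every array with intensities of 6793 and 8270 (knockout) and 13819 and 9824 (control), and both controls were above both knockout arrays. Ly6a, which encodes Sca-1, gave intensities of 3701 and 2768 (knockout) and 2094 and 2484 (control). In both groups most of the genes described here were higher on replicate 1 than on replicate 2. Log2 fold changes of the set that move without control replicate 1 (control 1) are given with and without it. So are list medians that move by more than the spread between replicates without control 1.

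All 10 globin and erythroid probes were detected on all 4 arrays, and the 4 globin probes were among the brightest of each array. The globin probes stood between percentiles 95.8 and 99.7 of the intensities of their arrays. The probes of Gata1 and Klf1 stood between percentiles 90.4 and 94.3, and the Epor probe between 63.3 and 73.6. Among red cell proteins outside the set, the probe of the alpha globin chaperone Ahsp stood between percentiles 94.8 and 97.0 and that of the anion exchanger Slc4a1 (band 3) between 87.8 and 92.9. The Rh-associated glycoprotein Rhag stood between percentiles 81.6 and 90.4. Probes bind with different strength, so these positions place signals on an array and do not rank the genes by transcript number. The plot of intensities by array shows these values.

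**Figure D1:**
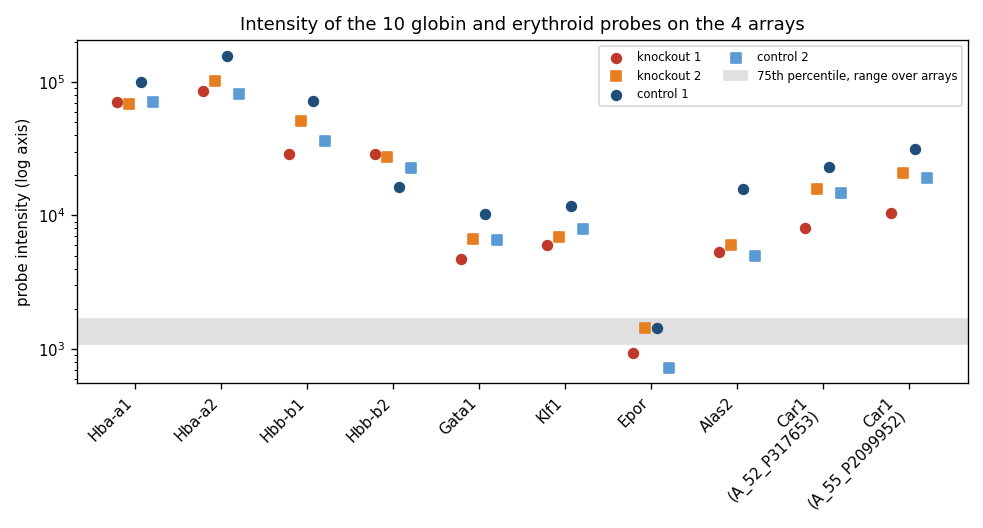
Probe intensity (log axis) of the 10 globin and erythroid probes, with 1 point per array in each of the 4 arrays and a grey band for the range of the arrays' 75th percentiles. The lowest globin value is 16353 (Hbb-b2, control 1) and Epor lies near the band, and the control 1 point (dark blue circle) is the highest of its probe for Hba-a1, Hba-a2, Hbb-b1, Gata1, Klf1, Epor, Alas2 and Car1, and the lowest for Hbb-b2.

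No globin or erythroid gene passed the test between knockout and control. Of the 9 genes, 7 were lower and 2 (Hbb-b2 and Epor) higher on the knockout arrays, with a median log2 fold change of -0.21, against 0.09 over all kept probes, of which 44.2% were lower. None of the 10 probes was past the threshold of an adjusted p of 0.05 (limma with Benjamini-Hochberg adjustment over all 43759 kept probes, 0 of which were past it, 0.0%), and adjusted p ranged from 0.780 to 0.953. At an unadjusted p under 0.05 there were 0 of the 9 genes, against 5.74% of all kept probes (4.32% higher and 1.42% lower). Both arrays of a group lay beyond both of the other for 2 of the 9 genes, Hbb-b2 (higher) and Car1 (lower), where 38.9% of all kept probes did so (19.4% higher and 19.5% lower). Without control 1 the picture turned: 3 of the 9 genes were lower and the median was 0.27. Without control 2 the median moved the other way, to -0.64, with 8 of the 9 genes lower. In bulk samples like these, fewer cells of a type and less RNA per cell cannot be told apart.

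**Figure D2:**
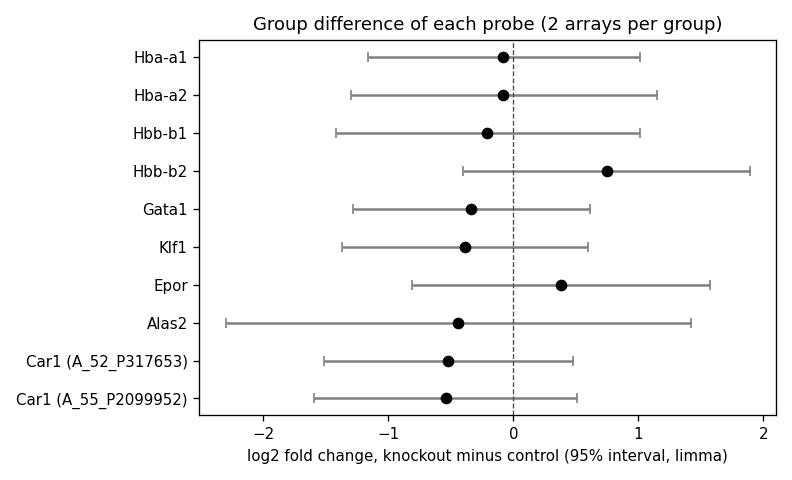
Log2 fold change of knockout over control for each globin and erythroid probe (points), with 95% intervals from limma (bars; 2 arrays per group). All 10 intervals include 0, and Alas2 has the widest, from -2.30 to 1.42.

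The alpha globin chains are encoded by the neighbouring copies Hba-a1 and Hba-a2. The Hba-a1 probe gave intensities of 70921 and 68760 (knockout) and 100500 and 71263 (control). After scaling these were 6.02 and 5.35 against 5.98 and 5.54, so both controls lay between the knockout arrays. The log2 fold change was -0.08 (SE 0.38, 95% interval -1.16 to 1.01, n = 2 per group, limma adjusted p = 0.947).

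The Hba-a2 probe gave intensities of 84896 and 101203 (knockout) and 156718 and 80678 (control). The scaled log2 values were 6.28 and 5.90 against 6.62 and 5.72, so both knockout arrays lay between the controls. Knockout over control this was a log2 fold change of -0.08 (SE 0.43, 95% interval -1.30 to 1.15, limma adjusted p = 0.953), 1.06-fold lower. The alpha globin signal thus differed by 0.90 (log2) between the control arrays in Hba-a2 and by 0.08 between the groups. Without control 1 the log2 fold changes were 0.14 for Hba-a1 and 0.37 for Hba-a2, the opposite direction, and without knockout replicate 2 they were 0.26 and 0.11.

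Of the beta globin probes, the Hbb-b1 probe, whose accession is that of the C57BL/6 gene Hbb-bt, had a profile over the arrays close to that of Hba-a2. It read 29060 and 50523 (knockout) and 71905 and 35796 (control). Scaled, they were 4.73 and 4.90 against 5.50 and 4.55, again with both knockout arrays between the controls. Between the groups the difference was -0.21 on the log2 scale (SE 0.43, 95% interval -1.42 to 1.01, limma adjusted p = 0.875), and 0.27 without control 1. The other beta globin gene of this strain, Hbb-bs, is outside the set and has its own probe, with intensities of 10543 and 13613 (knockout) and 33448 and 11445 (control). Its log2 fold change was -0.51 (95% interval -2.22 to 1.20), and control 1 was 1.49 (log2) above control 2. Among the 6 kept globin genes outside the set it was the 1 gene above on control 1, and the median difference of the 6 was -1.09. The others were dimmer and stood below the 75th percentile of each array. Low intensities differed between the controls, with a 20th percentile of 12.4 on control 1 and 57.6 on control 2. The part of this in the -1.09 was not tested.

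The Hbb-b2 probe was the one globin probe of the set that was lower on control 1 than on control 2. It read 28869 and 27311 (knockout) and 16353 and 22601 (control). The scaled values were 4.72 and 4.01 on the knockout arrays against 3.36 and 3.88 on the controls, so the groups did not overlap. The knockout mean was higher by 0.75 on the log2 scale (SE 0.40, 95% interval -0.40 to 1.89, limma adjusted p = 0.780), 1.68-fold higher. It was 0.48 without control 1 and 0.39 without knockout replicate 1. Since the probe was designed to a transcript of another beta globin haplotype, which RNA it measured in these mice is not known, and no probe sequence was used here.

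Embryonic globins are normally silent in adult marrow. The Hba-x probe (embryonic zeta chain) was dim, and was detected on both knockout arrays, with intensities of 32.4 and 106.5, and on neither control, with 11.2 and 43.6. The limits of detection differ by array: knockout 1 passed its own limit of 22.8, while control 2, with the higher intensity, did not pass its limit of 57.6. The scaled values of these arrays were close, -5.08 on knockout 1 and -5.13 on control 2, and the 95% interval of the log2 fold change ran from -0.86 to 4.09 in limma. Hbb-y, another embryonic globin, was detected on both controls (57.8 and 188.7) and on knockout 2 (462.1) but not on knockout 1 (16.5), with a log2 fold change of -0.06 (95% interval -4.80 to 4.69). Of the 7 globin genes outside the set that have a probe of their own, 6 passed the filter, 4 of these higher and 2 lower, and 1 was not detected on any array. Hbb-bh2 had a log2 fold change of 0.84 (95% interval -0.97 to 2.65) and Hbq1b one of 0.55 (95% interval -1.50 to 2.61), with overlapping groups in both. Hbb-bt is not counted among the 7, since its accession is on the Hbb-b1 probe.

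The transcription factors Gata1 and Klf1 had the most similar profiles over the arrays of any pair in the set. The Gata1 probe gave intensities of 4759 and 6632 (knockout) and 10226 and 6503 (control). The scaled values were 2.12 and 1.97 against 2.68 and 2.09, which overlap by a narrow margin. The log2 fold change was -0.34 (SE 0.33, 95% interval -1.28 to 0.61, limma adjusted p = 0.789), 1.26-fold lower, and -0.04 without control 1.

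The Klf1 probe gave intensities of 5964 and 6881 (knockout) and 11780 and 7869 (control). Scaled, they were 2.45 and 2.03 against 2.89 and 2.36, with knockout 1 above control 2. The group difference on the log2 scale was -0.39 (SE 0.35, 95% interval -1.37 to 0.60, limma adjusted p = 0.785), 1.31-fold lower, and -0.13 without control 1.

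Epor, the receptor through which erythropoietin acts, was the dimmest of the set. It read 934.7 and 1436 (knockout) and 1436 and 723.3 (control). The scaled values were -0.23 and -0.24 (knockout) and -0.15 and -1.08 (control), so that control 2 alone was low and the groups overlapped. The knockout mean was higher by 0.38 on the log2 scale (SE 0.42, 95% interval -0.81 to 1.57, limma adjusted p = 0.795). It was 0.85 without control 1 and -0.08 without control 2.

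Alas2, the erythroid heme synthesis enzyme, had the widest spread between controls. It read 5326 and 5974 (knockout) and 15663 and 4947 (control), so that control 1 was far above the other 3 arrays, which lay close together. The scaled values were 2.28 and 1.82 (knockout) and 3.30 and 1.69 (control). The controls differed by 1.60 and the groups by -0.44 (SE 0.66, 95% interval -2.30 to 1.42, limma adjusted p = 0.829). Without control 1 the log2 fold change was 0.36.

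Car1, the carbonic anhydrase, had lower values on each knockout array than on either control, by both of its probes. The brighter probe (A_55_P2099952) gave intensities of 10366 and 20630 (knockout) and 31280 and 19069 (control). The scaled values were 3.24 and 3.61 against 4.29 and 3.64, so that knockout 2 and control 2 differed by little. The log2 fold change was -0.54 (SE 0.37, 95% interval -1.59 to 0.51, limma adjusted p = 0.780), 1.45-fold lower. The second probe (A_52_P317653) gave scaled values of 2.87 and 3.21 against 3.85 and 3.26 and a log2 fold change of -0.52 (95% interval -1.51 to 0.48). Without control 1 the value of the brighter probe was -0.21. In the authors' deposited table the 10 probes had p-values from 0.232 to 0.887 and absolute ratios from 1.05 to 1.68, with the same directions.

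For most of the genes the controls differed from each other by more than the groups did. The difference between the controls exceeded the group difference in 8 of the 9 genes, and the difference between the knockout arrays did so in 4. Control 1 was above control 2 in 8 of the 9, all but Hbb-b2, with a median difference of 0.66, and was the highest of the 4 scaled values in 7. Of all kept probes 46.7% were above on control 1, with a median of -0.06. Bright probes leaned the same way as the erythroid genes: among the brightest 25% of kept probes 72.9% were above on control 1, with a median difference of 0.19, and 4.31% differed by more than 1. Knockout 1 was above knockout 2 in 7 of the 9 genes, with a median difference of 0.37, so the replicates differed in the same direction in both groups. The plot of centred values by array shows the genes on each array.

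**Figure D3:**
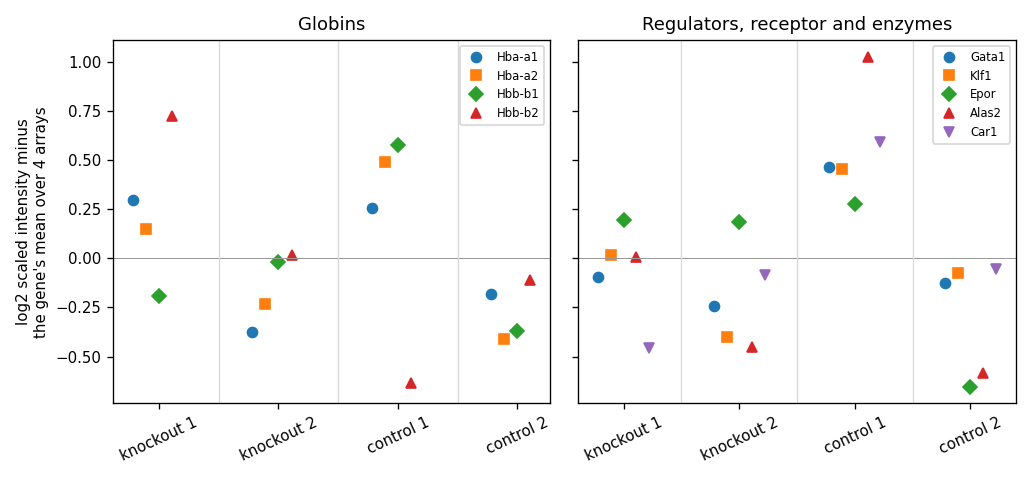
Scaled log2 intensity of each gene minus its mean over the 4 arrays, with globins on the left and the regulators, receptor and enzymes on the right (1 point per gene and array; Car1 by its brighter probe). On control 1 Hbb-b2 is the lowest and all other genes are above their mean, Alas2 by the most.

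Likeness of the profiles over the 4 arrays was measured by the root mean square difference of the centred log2 values. Gata1 and Klf1 were the most alike of the 36 pairs of genes (0.103). Genes outside the set came nearer still, to 0.0064 from Gata1 and 0.00827 from Klf1. The copies Hba-a1 and Hba-a2 differed by 0.194, and Hbb-b1 was at 0.181 from Gata1, 0.203 from Hba-a2 and 0.354 from Hba-a1. The 8 pairs that hold Hbb-b2 were the 8 least alike, from 0.534 to 0.963, and the other pairs reached at most 0.503. The 5 genes outside the globins whose profile was nearest to the mean of the 4 globins, among 19470 kept genes, were Ankrd40 (0.0152), Adal (0.0160), Dennd4c (0.0161), Actb (0.0161) and Lamp1 (0.0168), the profiles being over 4 arrays only.

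Globin signal was also set against that of the regulators within each array, since such a ratio does not depend on a constant scaling of the array. The size of a ratio between probes has no meaning as a level, and only its change across arrays is read. The log2 ratio of Gata1 over Klf1 was -0.33 and -0.05 (knockout) and -0.20 and -0.28 (control), a range of 0.27 over the 4 arrays, the smallest of the 28 ratios computed. The log2 ratio of Hba-a1 over Klf1 was 3.57 and 3.32 (knockout) and 3.09 and 3.18 (control), and that of Hba-a2 over Klf1 was 3.83 and 3.88 against 3.73 and 3.36. Both ratios were thus higher on each knockout array than on each control, by 0.31 on average (1.24-fold). Such separation is common on these arrays, where the groups did not overlap for 38.9% of all kept single probes. Larger differences in this direction without overlap were mostly those of Hbb-b2. They were its ratios over Car1 (1.29), Alas2 (1.19), Klf1 (1.13), Gata1 (1.08) and Hba-a1 (0.82), and that of Hbb-b1 over Car1 (0.34). The ratio of Hbb-b1 over Klf1 overlapped between the groups (difference 0.18). Against Epor the direction was the reverse for Hba-a1, Hba-a2 and Hbb-b1. The log2 ratio of Hba-a2 over Epor was 6.51 and 6.14 (knockout) and 6.77 and 6.80 (control), a difference of -0.46 without overlap. For Hbb-b1 over Epor it was 4.96 and 5.14 against 5.65 and 5.63, a difference of -0.59, again without overlap. For Hba-a1 over Epor the difference was also -0.46, but the groups overlapped (6.25 and 5.58 against 6.13 and 6.62). Hbb-b2 over Epor went the other way (0.36), with overlap. Against Gata1 the groups overlapped for Hba-a1, Hba-a2 and Hbb-b1, and did not for Hbb-b2 (difference 1.08). The log2 ratio of Hba-a1 over Gata1 was 3.90 and 3.37 (knockout) and 3.30 and 3.45 (control).

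The ratio of alpha globin to Alas2 set control 1 apart. For Hba-a1 it was 3.74 and 3.52 on the knockout arrays, 2.68 on control 1 and 3.85 on control 2 (log2). Control 1 was above control 2 by 1.60 in Alas2 and by 0.44 in Hba-a1. The scaled Hba-a1 value of control 1 (5.98) was close to that of knockout 1 (6.02). The ratio of Hbb-b2 over Hbb-b1 was -0.01 and -0.89 on the knockout arrays, -2.14 on control 1 and -0.66 on control 2, with knockout 2 below control 2. The ratio of Hbb-b2 over Car1 had the largest range of the 28 (2.41), and that of Hba-a2 over Hba-a1 had equal group means (0.41 each). These ratios were chosen among the genes of the set and were not tested.

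No other gene of red cell formation on these lists passed the test either. Over 6 lists (heme synthesis, red cell membrane and surface, erythroid transcription factors and partners, late erythroid genes, erythropoietin signalling and iron handling) the medians of the log2 fold change ran from -0.18 to -0.02, against 0.03 over all 19470 kept genes and -0.05 over the brightest 25% of them. Of the 86 different kept genes of these lists, 52 were lower (60.5%), against 48.0% of all kept genes and 56.0% of the brightest 25%. None was past the threshold in limma, and 2 had an unadjusted p under 0.05 (2.33%, against 4.73% of all kept genes). The groups did not overlap for 25 of the 86 (29.1%), against 38.5% of all kept genes. Without control 1, 30 of the 86 were lower, and their median went from -0.10 to 0.15.

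Among genes of heme synthesis 7 of 11 were lower (median -0.18, and 0.15 without control 1). Alas1, the form of aminolevulinate synthase found in all tissues, gave intensities of 6662 and 7983 (knockout) and 5379 and 5924 (control), a log2 fold change of 0.57 (95% interval -0.25 to 1.39). Coproporphyrinogen oxidase (Cpox) had a value of -0.47, the glycine transporter of mitochondria Slc25a38 one of -0.32, and Alad, the enzyme after Alas2, one of -0.27. The groups did not overlap for 3 of the 11, Alas1, Cpox and Slc25a38, a smaller share than the 38.5% of all kept genes.

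Of 19 kept genes of the red cell membrane and surface 10 were lower (median -0.06). Rhag gave intensities of 2408 and 2752 (knockout) and 6629 and 3645 (control), a log2 fold change of -0.73 (95% interval -1.91 to 0.44) with groups that did not overlap. Next by unadjusted p came the beta spectrin gene Sptb (0.85), the blood group antigen Kel (-0.74) and the erythroblast membrane protein Ermap (0.91), all with intervals that include 0. Slc4a1 had a value of 0.13 and the transferrin receptor Tfrc one of 0.45, with overlapping groups in both.

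Of 18 transcription factors and partners 14 were lower (median -0.14), and the groups did not overlap for 4 of the 18 in the lower direction (22.2%, against 21.0% of all kept genes) and for 2 in the higher. Gata2, which acts before Gata1 in the lineage, gave intensities of 2973 and 3894 (knockout) and 7494 and 4989 (control) (log2 fold change -0.65, 95% interval -1.57 to 0.28). Tal1, a partner of GATA1 at erythroid genes, had a value of -0.53 (95% interval -1.47 to 0.42) and Bcl11a, which represses embryonic globins, one of -0.52. The myeloid factor Spi1 (PU.1), an antagonist of GATA1, had a value of 0.40 (95% interval -0.33 to 1.12).

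Late erythroid genes were lower in 8 of 15 (median -0.08, and 0.26 without control 1). Bpgm, which makes the haemoglobin effector bisphosphoglycerate, had a log2 fold change of -0.84 (95% interval -2.24 to 0.56), the erythroid nuclear protein Hemgn one of 0.45 and Cited4 one of 0.50. The globin chaperone Ahsp gave intensities of 14220 and 14511 (knockout) and 22741 and 13966 (control), a value of -0.11 (95% interval -1.26 to 1.04), with control 1 again the highest in intensity.

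In erythropoietin signalling 7 of 14 genes were lower (median -0.05). The feedback inhibitor Socs2 gave intensities of 1217 and 1697 (knockout) and 959.6 and 544.7 (control), a log2 fold change of 1.19 (95% interval 0.13 to 2.25, unadjusted p = 0.0361 and adjusted p = 0.780 in limma). The Src family kinase Lyn had a value of 0.85 (95% interval 0.06 to 1.64, unadjusted p = 0.0408 and adjusted p = 0.780 in limma). Stat5a and Stat5b, which carry the signal of the receptor to the nucleus, had values of -0.70 (95% interval -1.52 to 0.13) and -0.44. Of iron handling genes 7 of 11 were lower (median -0.02), with values of -0.52 for Ireb2, which controls mRNAs by iron level, -0.55 for the transferrin receptor Tfr2 and 0.31 for Aco1.

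The same lists separated the replicates of both groups. Control 1 was above control 2 in 76 of the 86 genes, with a median difference of 0.47, and the share ran from 85.7% to 90.9% over the 6 lists. In the brightest 25% of kept genes 76.0% were above on control 1, with a median of 0.21, and in all kept genes 52.6%. The medians of the 6 lists ran from 0.30 (transcription factors and partners) to 0.65 (late erythroid genes). This was not particular to erythroid genes: 10 of 12 LSK markers were above on control 1 (median 0.38). Kit and Gata2 are among these 10 and also among the 86. Monocyte and macrophage markers had a median of 0.98, while that of neutrophil markers was -0.19. Slc4a1 was 1.05 above on control 1, beside the 1.60 of Alas2. Knockout 1 was above knockout 2 in 72 of the 86 genes, with a median difference of 0.34, against 69.9% of the brightest 25% of kept genes and 49.7% of all kept genes. Among the iron handling genes knockout 1 was above in 6 of 11, with a median difference of 0.13. Over the 86 genes together the same direction was thus seen in both groups. These differences are between 2 arrays and carry no test. The globin genes outside the set, dim but for Hbb-bs and with 1 of 6 above on control 1, are not among the 86.

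**Figure D4:**
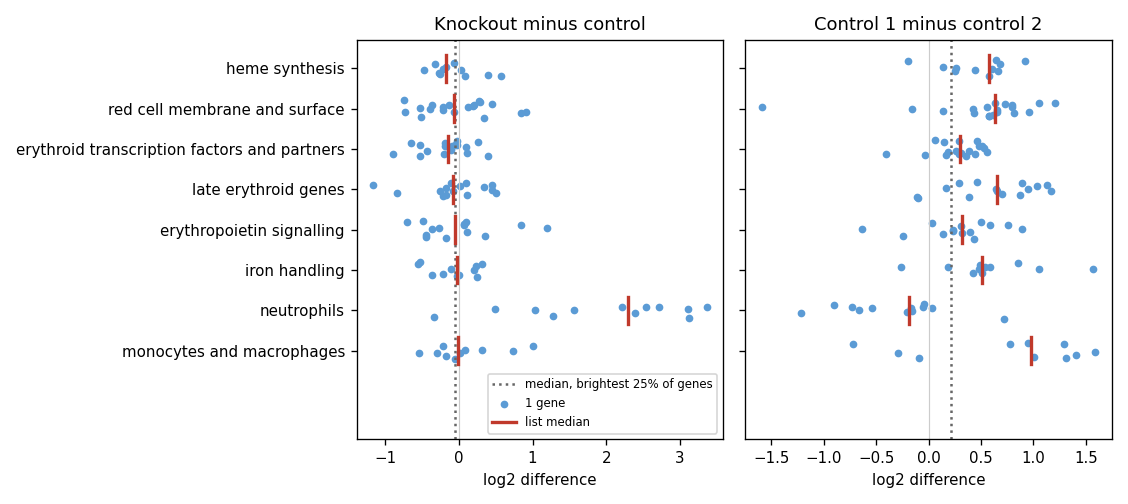
Log2 differences of single genes (blue points) in 8 gene lists, with each list's median (red line), between knockout and control means on the left and between the control arrays on the right. The dotted line is the median of the brightest 25% of kept genes. On the right the medians of the 6 erythroid lists and of the monocyte and macrophage list all lie above it, and neutrophil genes have a median of 2.30 on the left.

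Markers of other marrow cell types were read on the same arrays. Of the 10 monocyte and macrophage markers 7 were above on control 1, a share below the 76.0% of the brightest 25% of kept genes, with a median scaled level of 1.25 on control 1, 0.12 on control 2 and 0.52 and 0.58 on the knockout arrays. Vcam1, an adhesion molecule of macrophages that support erythroblasts, gave intensities of 2995 and 5702 (knockout) and 9734 and 3111 (control), and the haemoglobin scavenger receptor Cd163 had 1920 and 2180 against 5669 and 2048. Vcam1 and Cd163 had the largest control differences of the list (1.59 and 1.41) and were chosen after their values were seen. Csf1r (-0.09), Ly86 (-0.72) and Marco (-0.29) were lower on control 1 than on control 2. The summed level of the list (log2 of its members' summed intensity, scaled) was 5.21 and 5.19 (knockout) and 5.20 and 4.63 (control), and no marker of any of the 7 cell type lists was undetected on all arrays. Its brightest members by the mean were Csf1r and C1qb, with log2 fold changes of 0.73 and -0.17.

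Neutrophil genes separated the groups instead, though no marker of the cell type lists was past the threshold in limma. Of 12 markers 11 were higher on the knockout arrays, as were 10125 of all 19470 kept genes. The median of the markers was 2.30, and 1.99 without control 1. Their median scaled levels were 2.69 and 2.50 (knockout) and -0.13 and 0.39 (control). The summed level was 8.28 and 7.95 against 8.02 and 8.07, and rests on the bright probes of Itgam (log2 fold change -0.34) and Mpo (0.49). All 10 B-lineage markers were higher too (median 1.53, and 1.18 without control 1). Their summed levels were 3.30 and 3.06 against 2.48 and 2.41, and the brightest were Cd79b and Vpreb1 (0.45 and 1.52). T and NK cell markers had a median of 0.47 (8 of 9 higher, summed levels of 4.69 and 4.66 against 4.22 and 4.12, brightest Nkg7 with 0.47 and Cd4 with 0.37). Mast cell and basophil markers had a median of 0.71 (6 of 7 higher, summed levels of 4.08 and 2.93 against 2.70 and 2.69, brightest Tpsb2 with 0.09 and Mcpt8 with 1.22). That median moved to 0.14 without control 2 and to 1.27 without knockout replicate 2.

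Megakaryocyte and platelet genes, of the lineage closest to the erythroid one, were divided, with 6 of 12 higher and a median of 0.09. Their summed level was 4.51 and 4.55 (knockout) and 4.76 and 4.28 (control), and their brightest marker Pf4 had a value of -0.17. Of the 12 LSK markers 10 were lower (median -0.22, summed levels of 5.83 and 5.47 against 5.97 and 5.70), the brightest being Meis1 with -0.15 and Cd34 with -0.23. The part of these cell types in the erythroid values was not tested.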

How the data were processed

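Linear intensity values for each probe and array were deposited by the authors. The submitters' processing notes name Agilent Feature Extraction, without a version in the sources used here. Per the labels' protocols, 0.1 to 5 ng of RNA were amplified, with 16 to 19 cycles not tied to samples, and 250 ng were labelled. The authors' deposited comparison table gives a p-value, an absolute ratio and a gene symbol per probe, per the file headers. A deposited value table (a score of unstated scale, column medians from -3.34 to -2.05) hardly correlated under its probe names with the log2 intensities (r from 0.0690 to 0.0914 over 16370 probes), so it was not analysed further.

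Intensities were set to at least 1, converted to log2 and scaled by each array's 75th percentile. The filter kept 43759 of 55677 probes, those exceeding the 20th percentile on each array of either group. Groups, taken from the sample titles, were tested by limma 3.58.1 under R 4.3.3 (2 residual and 1.78 prior degrees of freedom, two-sided, no block, Benjamini-Hochberg over all kept probes, threshold 0.05). A gene was represented by its brightest kept probe. The fit was tested on simulated data. The number of arrays limits the precision. The genes and the 14 gene lists were chosen with earlier results of these data known. Named genes are the 9 of the set, from each related list the 4 of smallest unadjusted p, the 2 brightest of each cell type list and the 5 nearest profiles; some of these genes are not reported here. Hbb-bs, Slc4a1, Tfrc, Ahsp, Kit, Ly6a, Vcam1, Cd163, Hbb-y, Ly86 and Marco were added with their values known. Alternatives were other scalings, an offset of 50, other filters, a replicate block and leaving out each array.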

Additional observations from a re-analysis of the deposited data

How the results depend on the processing

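The count of globin and erythroid genes past the threshold was 0 under all 11 alternatives run. Over all probes 0 were past it, and 1 with the filter at the 50th percentile, a predicted pseudogene (Gm3219, adjusted p = 0.0415 in limma over 27224 probes). With an array left out, the median log2 fold change of the 9 genes ranged from -0.64 (without control replicate 2) to 0.27 (without control replicate 1), and the number of genes lower from 3 to 8. Directions of these genes turned only with an array left out. Without control replicate 1 the log2 fold change was 0.36 for Alas2, 0.14 for Hba-a1, 0.37 for Hba-a2 and 0.27 for Hbb-b1. Without control replicate 2 it was -0.08 for Epor, and without Ezh1 knockout replicate 2 it was 0.26 for Hba-a1 and 0.11 for Hba-a2. With the mean of its probes Car1 was at -0.53. The cause was not tested. Over the arrays left out, Alas2 ranged from -1.24 to 0.36, Epor from -0.08 to 0.85, Hba-a1 from -0.41 to 0.26, Hba-a2 from -0.53 to 0.37 and Hbb-b1 from -0.68 to 0.27. Hbb-b2 ranged from 0.39 to 1.10, Car1 from -0.87 to -0.21, Klf1 from -0.65 to -0.13 and Gata1 from -0.64 to -0.04. The median of all kept probes was 0.09, -0.13 after median centring and -0.08 after quantile normalization, where the 9 genes' medians were -0.42 and -0.39. With the replicate number as a block the count stayed at 0 (lowest adjusted p 0.206 over all probes, 0.342 over the 9 genes), and no other call changed. The differences between replicates 1 and 2 in the 2 groups correlated across probes (r = 0.690), but the labels do not say that a number marks a shared animal, litter or day. The value table of unstated scale was not run as an alternative. Of 154 list medians recomputed, 14 moved by more than the spread between replicates.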
